A study of Mus musculus with 15 samples.

Results

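Side population (SP) and non-side population (non-SP) cells of one mouse glioma line, 3447, were compared across all genes on 6 expression arrays, 3 per group, of the 15 arrays in the series. The 6 arrays were chosen by their labels. Side population cells are the cells that keep little of a DNA-binding dye in flow cytometry. Line 3447 was grown as tumorspheres, floating cultures from a mouse brain tumour. The tumour came from an S100beta-verbB transgenic animal that was either p53-/- or p53+/-; the labels do not say which of these line 3447 had. S100beta is a promoter active in glial cells, and v-erbB is an activated form of the EGF receptor. The tumorspheres were injected into the brains of immunodeficient NOD.Cg-Prkdc scid Il2rg tm1Wjl/SzJ hosts, tumorspheres were recovered and cultured again, and the cells were sorted. The 3 replicates of a group are thus separate grafts of 1 tumour line. The standard errors (SE) below come from a fit of all 15 arrays. They pool the spread between these grafts with that within the other groups of the series. Donor line, transgene and host strain were the same in SP and non-SP cells. No ages were given. The reference comparison was SP against non-SP cells of untransformed neurospheres, cultures of neural stem and progenitor cells, with 3 arrays each. The neurospheres came from 3 animals that carried the same S100beta-verbB transgene and were likewise p53-/- or p53+/-; the design text says in one place that they were sorted after culture and in another that they had been injected into mice first. A second tumour line, 4346, of the same kind of animal, is represented here by 3 SP arrays. These were not compared with other groups. They entered the joint normalization, the filter on low signals, the choice of probe sets and the shared estimate of spread.

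Dye exclusion depends on ATP-binding cassette (ABC) transporters, of which Abcg2 is the one most often tied to the side population. TGF-beta signals through paired receptor kinases and Smad proteins to matrix genes and to its own inhibitors, Smad7 and Skil among them. YAP and TAZ are transcriptional partners of TEAD factors that respond to cell shape and adhesion. In dividing cells E2F factors drive the genes of DNA replication, and sterol synthesis is switched on by SREBP factors when membrane cholesterol is low. In glioma cultures of this kind the cells often resemble oligodendrocyte progenitors.

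The label of the cells was compared with marker genes first. Of 16 oligodendrocyte progenitor markers with a probe set, 15 lay above the median signal of their array in at least 3 of the 6 arrays, as did 15 of 18 neural stem and progenitor markers and 16 of 22 astrocyte markers. So did 10 of 21 neuron and neuroblast markers, 7 of 14 myelin markers and 4 of 15 ependymal markers. Only 1 of 17 microglia and macrophage markers, 1 of 14 endothelial markers and 0 of 9 blood markers did. The share of all genes under this rule was not counted. Under a looser rule, at least 3 of all 15 arrays, 11908 of 18193 genes passed. The 6 arrays had median signals of 40.0 to 89.3, with the highest in SP replicate 3. Rank correlations of an array with the others of its group were 0.937 to 0.945 in SP and 0.962 to 0.966 in non-SP cells, so the SP arrays were the less alike. On the first principal component of the 6 arrays, which held 31.8% of the variance, all SP arrays lay above all non-SP arrays, at 14.3, -0.16 and 45.2 against -19.2, -12.0 and -28.2.

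Across 11908 genes tested with limma, 1 passed an adjusted p of 0.05, which is 0.00840% of genes. That gene was Smad7, an inhibitor that blocks TGF-beta receptors and other members of the family. Its MAS5 signals, the array's brightness summary on a linear scale, were 638, 461 and 417 in the SP arrays and 105, 91.9 and 40.5 in the non-SP arrays. Every SP array lay above every non-SP array. Smad7 rose by a log2 difference of 2.37 ± 0.32 (SE, n = 3 per group; limma adjusted p = 0.0169), on the scale of log2 of the normalized signal plus 16. A further probe set of Smad7 that passed the filter on low signals differed by 1.23. The call did not hold in every alternative: it was lost when any of 5 of the 6 arrays was left out (adjusted p from 0.0715 to 0.147), with SP replicate 1, 2 or 3 or non-SP replicate 2 or 3 removed. It was also lost with median centring of arrays (0.0648), without a filter on low signals (0.0520) and with the mean of a gene's probe sets (0.139).

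All other values below are measured differences that did not pass the adjusted threshold. They are read against 2 backgrounds over all genes. An unadjusted p under 0.05 with a higher level in SP cells was found for 522 genes (4.38%), and with a lower level for 337 genes (2.83%). The 3 SP arrays lay above the 3 non-SP arrays in 1080 genes (9.07%) and below them in 1005 (8.44%), on the normalized scale. Both conditions held for 427 genes higher and 258 lower in SP cells, of which 163 and 56 differed at least 2-fold. The median log2 difference over all genes was -0.01. With arrays centred on their medians instead of quantile-normalized, that median was -0.30 and the counts of separated genes became 241 higher and 1372 lower, so the balance of higher against lower genes depended on the scaling.

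**Figure D1:**
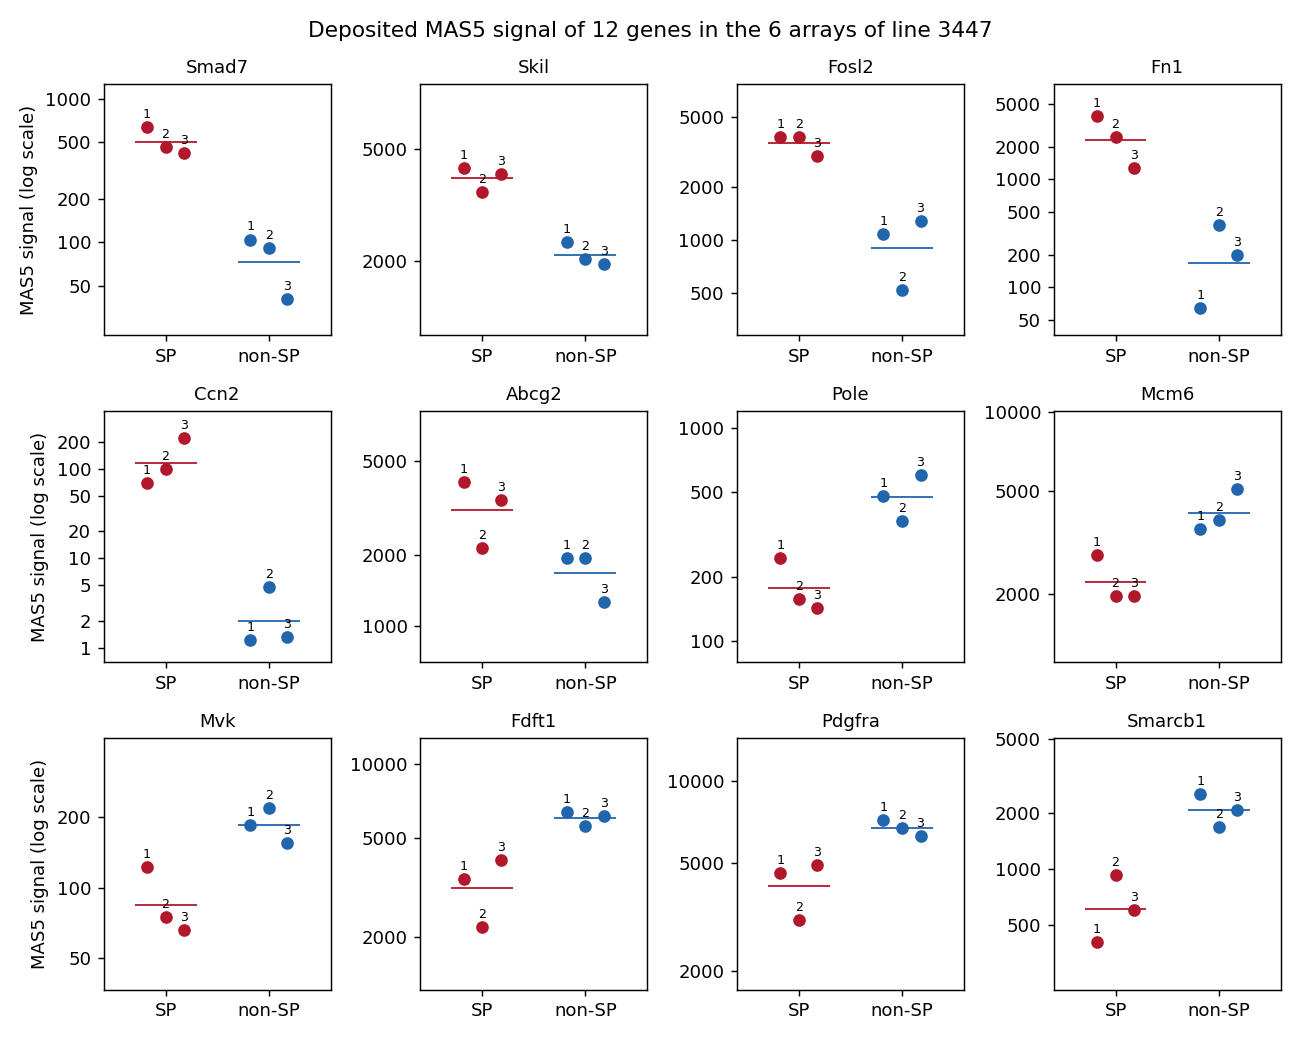
MAS5 signals (log axis) of 12 genes in the SP (red) and non-SP (blue) arrays of line 3447, with replicate numbers and a bar at the geometric mean of each group. In each of the 12 genes the 3 SP points lie on one side of the 3 non-SP points, and Smad7 was the only one of them to pass the adjusted test.

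The first question the design raises is whether the sort enriched the dye pump itself. Abcg2 signals were 4099, 2142 and 3416 in SP cells and 1946, 1945 and 1261 in non-SP cells. The groups did not overlap, but SP replicate 2 was close to the non-SP arrays. The log2 difference was 0.90 ± 0.23 (limma adjusted p = 0.266). Of 10 ABC efflux transporters tested, Abcg2 was the only one higher and apart, and 3 were lower and apart; the list median was -0.17. Abca3, a lipid transporter, had signals of 613, 802 and 557 in SP and 951, 1210 and 1102 in non-SP cells, a log2 difference of -0.73 ± 0.26. Abcb6, a porphyrin transporter, differed by -0.63 ± 0.30. Abcb1b, a gene of the multidrug pump P-glycoprotein, had overlapping signals of 175, 111 and 105 against 129, 105 and 84.4, with a log2 difference of -0.01 ± 0.33. Abcb1a, another gene of this pump, was not among the 10 tested. Abcc1, a glutathione-conjugate pump, differed by -0.21 ± 0.27 with overlapping groups. Abca1, which exports cholesterol and is not among these dye pumps, had signals of 490, 705 and 395 in SP and 89.7, 238 and 172 in non-SP cells, a log2 difference of 1.55 ± 0.37.

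TGF-beta signalling genes were given in 3 lists. Of 20 receptors, Smads and regulators tested, 8 were higher and apart and 0 lower and apart, 5 had an unadjusted p under 0.05, and the list median was 0.35. Smad7, Skil, Tgif1 and Pmepa1 are in this list and in the list of targets. Other targets, Fn1 and Ccn2 among them, are also in the matrix or the YAP and TAZ list below. The counts of these lists thus share genes. Skil, a nuclear co-repressor of Smads that TGF-beta induces, had signals of 4297, 3518 and 4088 in SP and 2330, 2032 and 1944 in non-SP cells. The tight grouping gave a log2 difference of 0.93 ± 0.17 (limma adjusted p = 0.116). Tgfbr2, the receptor that binds TGF-beta, had signals of 502, 358 and 361 against 107, 222 and 157, a log2 difference of 1.21 ± 0.46. Acvr1, a receptor for BMPs and activins, differed by 0.80 ± 0.32, and Tgif1, a co-repressor of Smads, by 1.18 ± 0.53. Both had separated groups. Of 18 TGF-beta target genes tested, 6 were higher and apart and 0 lower and apart, with a median of 0.68; in neurospheres the same list had a median of 0.63. The ligands and activators were closer to all genes, with 2 of 11 higher and apart, 0 lower and apart, 1 unadjusted p under 0.05 and a median of 0.09. The activator Thbs1, which releases TGF-beta from its latent form, had signals of 520, 169 and 400 in SP and 76.7, 132 and 27.9 in non-SP cells, a log2 difference of 1.87 ± 0.56. Its SP replicate 2 lay just above the highest non-SP array.

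Genes of the extracellular matrix were described next. Of 24 fibrillar matrix and mesenchymal genes tested, 9 were higher and apart, 1 was lower and apart, and the median log2 difference was 1.04, against 0.31 in neurospheres. Fn1, fibronectin, had signals of 3866, 2449 and 1280 in SP and 64.2, 375 and 200 in non-SP cells. All SP arrays were several times the highest non-SP array, and the log2 difference was 3.55 ± 0.92 (limma adjusted p = 0.274). The other Fn1 probe set that passed the filter differed by 0.89, so the size rests on the probe set. Bgn, the proteoglycan biglycan, had signals of 2457, 2969 and 3612 against 794, 1094 and 1228, a log2 difference of 1.55 ± 0.38; its 2 other probe sets differed by 1.64 and 1.70. Mgp, matrix Gla protein, had signals of 6351, 4763 and 2775 against 480, 2565 and 2049, a difference of 1.71 ± 0.57. Col1a1, the main chain of fibrillar collagen, had overlapping signals of 2734, 865 and 1931 against 554, 1309 and 252, a difference of 1.52 ± 0.56.

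Papss2, Cytl1, Ucma and Ccn4 were among the 15 highest separated genes and belong to none of the 45 lists. Papss2, which makes the sulfate donor for proteoglycans, had signals of 4235, 4039 and 1538 in SP and 52.3, 867 and 1080 in non-SP cells, a log2 difference of 2.83 ± 0.73. Cytl1, a secreted protein of cartilage, differed by 2.81 ± 0.80, and Ucma, a Gla protein of cartilage, by 2.41 ± 0.59. Ccn4, a matricellular protein induced by Wnt signals, had signals of 534, 284 and 362 against 18.6, 82.7 and 70.3, a difference of 2.42 ± 0.54. In the separate list of cartilage and brain matrix genes, 4 of 20 tested were higher and 1 lower and apart, with a median of -0.07. Among integrins and focal adhesion genes, 2 of 19 were higher and apart and 0 lower, near the share over all genes, with a median of 0.18. Of this list, Itga6, the laminin receptor subunit alpha 6, had signals of 4977, 4372 and 5224 against 2033, 1571 and 2228, a difference of 1.38 ± 0.43. Sdc4, the heparan sulfate proteoglycan syndecan-4 of focal adhesions, is named after its values were seen. Its signals of 4328, 3993 and 3487 against 1249, 946 and 1428 gave a difference of 1.75 ± 0.28, with the adjusted p nearest to that of Smad7 (limma adjusted p = 0.0761).

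Markers of pericytes and fibroblasts, cell types that a graft could hold, are given beside these matrix genes. Of 16 such markers with a probe set, 7 lay above their array's median in at least 3 of the 6 arrays and 6 in none. Without Pdgfra, which the progenitor list holds too, their summed signal was 3902, 1442 and 3246 in the SP arrays and 832, 1934 and 602 in the non-SP arrays. SP replicate 2 thus lay below non-SP replicate 2, and the groups overlapped. Col1a1 made up much of these sums. The 8 markers that passed the filter on low signals, of which Rgs5 and Lum lay above their array's median in the SP arrays of line 3447 alone, had a median log2 difference of 1.22, and all 16 without a filter had 0.29. Rgs5, a regulator of G protein signalling found in pericytes, had signals of 105, 59.7 and 159 against 3.32, 4.96 and 7.89, a log2 difference of 2.21 ± 0.54. Lum, the proteoglycan lumican of fibroblasts, had 126, 72.5 and 109 against 3.16, 46.1 and 14.2, a difference of 1.50 ± 0.48. Pdgfrb, the receptor that defines pericytes, was named after its values were seen and had a difference of 0.06 with overlapping groups. In bulk arrays, more cells of a type and more RNA per cell cannot be told apart, and the part of such cells in the matrix differences was not tested.

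**Figure D2:**
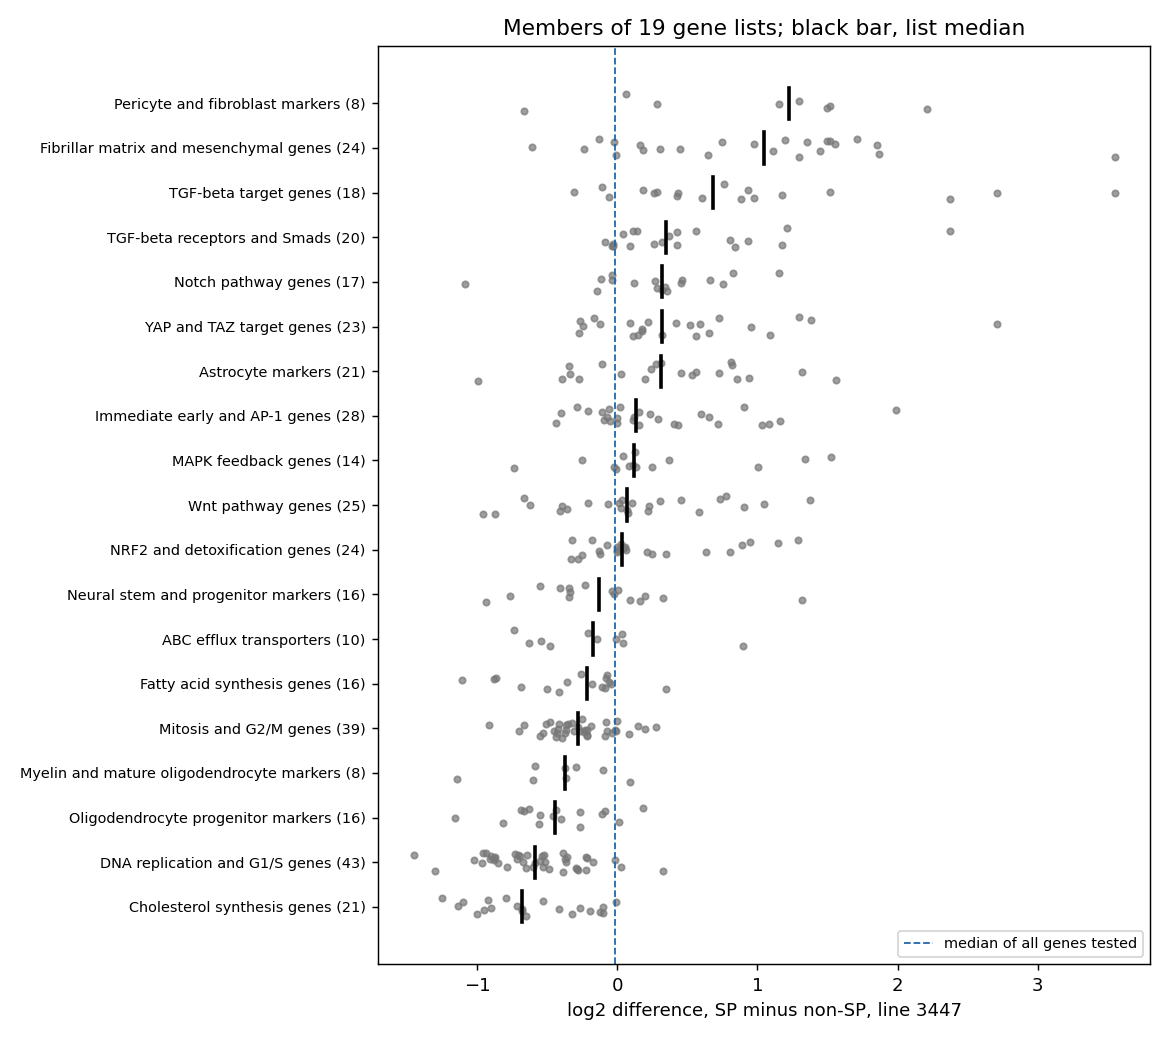
Each point is the log2 difference, SP minus non-SP in line 3447, of 1 gene of a list; numbers in brackets are members tested, black bars the list medians and the dashed line the median of all genes. Pericyte, matrix and TGF-beta target lists have the highest medians of those shown (1.22, 1.04 and 0.68; without the filter on low signals 0.29, 0.86 and 0.52, so that the pericyte list is then the lowest of these), and replication and cholesterol lists the lowest (-0.59 and -0.68).

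YAP and TAZ genes and the AP-1 family were next examined, since both act downstream of adhesion and receptor signals. Of 23 YAP and TAZ genes tested, 8 were higher and apart and 0 lower and apart, with a median of 0.32. Ccn2, connective tissue growth factor, had signals of 69.1, 99.0 and 220 in SP cells and 1.24, 4.75 and 1.33 in non-SP cells, so it was near the array's floor outside the side population. Its log2 difference was 2.71 ± 0.74. Wwtr1, which encodes TAZ, had signals of 4015, 3530 and 2619 against 1399, 2167 and 1672, a difference of 0.96 ± 0.24. Ajuba, an adhesion scaffold that restrains the Hippo kinases, differed by 1.38 ± 0.47. Ccn1, a matricellular relative of Ccn2, had signals of 2412, 2927 and 1144 against 861, 1140 and 873, a difference of 1.09 ± 0.28. SP replicate 3 of Ccn1 almost touched the non-SP range, and its 3 other probe sets differed by -0.03 to 0.56.

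Within the AP-1 and immediate early genes, 8 of 28 were higher and apart and 0 lower and apart, with a median of 0.14. In neurospheres the same list had a median of 0.47, with 28 of 28 above 0. The difference in line 3447 was below that in neurospheres for 22 of 28. Of all 11908 genes, 6784 were above 0 in neurospheres, and 6587 had a difference in line 3447 below that in neurospheres. Fosl2, a late-acting Fos relative, had signals of 3840, 3886 and 3025 in SP and 1090, 517 and 1286 in non-SP cells. The SP arrays agree closely, and the difference was 1.99 ± 0.41 (limma adjusted p = 0.116). Egr3, a zinc-finger factor of the same response, had 4925, 4195 and 3892 against 2020, 1856 and 2438, a difference of 1.09 ± 0.25. Atf3, a stress-induced factor, had 574, 1704 and 789 against 396, 429 and 490, a difference of 1.03 ± 0.31, with SP replicate 2 far above the rest. Myc, a growth regulator, differed by 1.16 ± 0.50. The classical members Fos, Jun and Egr1 differed by -0.07 ± 0.10, -0.11 ± 0.12 and 0.00 ± 0.09, with overlapping groups and signals among the highest on the arrays.

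Feedback genes of the MAP kinase pathway include phosphatases that switch off ERK. Of 14 tested, 3 were higher and apart, with a median of 0.12. Dusp5, a nuclear ERK phosphatase, had signals of 2864, 2215 and 2437 in SP and 1612, 653 and 925 in non-SP cells, a difference of 1.34 ± 0.29 (limma adjusted p = 0.143). Errfi1, an inhibitor of the EGF receptor, differed by 1.01 ± 0.22, with groups that were apart only after normalization, and Dusp4 by 1.52 ± 0.61. Egfr itself had low signals of 16.9, 24.1 and 34.6 against 0.858, 13.9 and 16.4. These deposited signals nearly touch, and the groups overlapped after normalization. The transgene is a viral erbB, and no probe set for it was identified here.

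Notch and Wnt genes showed a few members with separated groups. Of 17 Notch pathway genes, 3 were higher and apart and 0 lower, with a median of 0.32. Notch2, a receptor, had signals of 8722, 10998 and 8471 in SP and 6202, 6170 and 6199 in non-SP cells. The non-SP arrays were nearly equal, and the difference was 0.66 ± 0.13 (limma adjusted p = 0.116). Hey1, a Notch target repressor, differed by 0.76 ± 0.32, and Notch3, a receptor of mural cells, by 1.15 ± 0.49. Of 25 Wnt pathway genes, 5 were higher and 1 lower and apart, with a median of 0.07. Wnt5a, a ligand of non-canonical Wnt signalling, had 260, 381 and 224 against 51.7, 125 and 94.7, a difference of 1.37 ± 0.35. Fzd6, a receptor, differed by 0.91 ± 0.26, and Tcf7l1, a repressing TCF factor, by 1.05 ± 0.34. Wnt3a, a canonical ligand that is not among these 25, had low signals of 3.95, 20.3 and 11.5 against 47.0, 60.7 and 33.9, a difference of -1.41 ± 0.42.

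DNA replication genes had lower levels in SP cells across the list. Of 43 G1/S genes tested, 41 had a difference below 0, 27 were lower and apart and 0 higher and apart, 23 had an unadjusted p under 0.05, and 0 passed the adjusted test. The median was -0.59, against -0.12 for the same genes in neurospheres. Pole, the catalytic subunit of the leading-strand polymerase, had signals of 246, 159 and 143 in SP and 481, 368 and 602 in non-SP cells, a difference of -1.45 ± 0.34 (limma adjusted p = 0.198). Mcm6, part of the replicative helicase, had 2827, 1962 and 1962 against 3568, 3858 and 5071, a difference of -0.88 ± 0.21. Prim1, the primase, had 2536, 1611 and 1760 against 3556, 4139 and 4139, a difference of -1.02 ± 0.34. Pcna, the polymerase clamp, had 7282, 5884 and 7218 against 9987, 8849 and 12138, a difference of -0.48 ± 0.16. In each of these the highest SP array stayed below the lowest non-SP array. Outside the list, Rad54l, a recombination helicase, differed by -1.34 ± 0.37 and Pkmyt1, a kinase that restrains CDK1, by -1.43 ± 0.47. By array, the median level of the list relative to each gene's mean was -0.03, -0.65 and -0.15 in SP and 0.20, 0.17 and 0.43 in non-SP cells, so SP replicate 2 was lowest and SP replicate 1 closest to the non-SP arrays. Without SP replicate 2 the median difference was -0.41.

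The promoters of members of this list are shown because E2F factors bind the letters TTTCCCGC and TTTGGCGC. RefSeq (GRCm38.p6) gave the 250 bases before the start of 9667 tested genes, 35 of them in this list, and 13 motifs were searched on both strands in 6 lists; those given here were chosen after the counts were seen. Either E2F motif was found in 6 of 35 replication promoters (17.1%) and in 3.02% of all promoters. The 2 sequences below are read 5′ to 3′ on the gene's strand, with matches to these motifs on either strand in capitals. The Mcm6 sequence is chr1:128359706-128359955 and the Pola1 sequence, from the gene of the priming polymerase, is chrX:93632156-93632405, both on the minus strand.
Mcm6: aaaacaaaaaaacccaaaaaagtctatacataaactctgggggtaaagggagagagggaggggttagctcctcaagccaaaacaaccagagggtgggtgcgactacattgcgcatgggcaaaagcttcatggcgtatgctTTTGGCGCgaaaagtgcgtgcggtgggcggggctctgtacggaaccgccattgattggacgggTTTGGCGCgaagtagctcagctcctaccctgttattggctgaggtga
Pola1: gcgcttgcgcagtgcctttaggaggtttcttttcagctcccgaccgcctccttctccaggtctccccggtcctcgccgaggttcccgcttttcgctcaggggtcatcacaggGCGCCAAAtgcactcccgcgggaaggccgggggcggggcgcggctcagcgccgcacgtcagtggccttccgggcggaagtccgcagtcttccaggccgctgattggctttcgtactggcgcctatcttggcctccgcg
The Mcm6 sequence holds 2 matches and the Pola1 sequence 1. Pola1 had signals of 1087, 475 and 791 in SP and 1167, 1365 and 1507 in non-SP cells, a difference of -0.85 ± 0.28.

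Genes of mitosis differed less clearly than those of replication. Of 39 G2/M genes, 34 had a difference below 0, 3 were lower and apart, 1 had an unadjusted p under 0.05, and the median was -0.28. Over all genes, 8.44% were lower and apart, and 2.83% were lower with an unadjusted p under 0.05. Both counts of the list were thus near the share over all genes. By array the list stood at 0.20, -0.77 and 0.17 in SP and 0.24, 0.05 and 0.15 in non-SP cells, so only SP replicate 2 stood below the non-SP arrays. Without it the median difference was 0.0075, with 20 of 39 genes above 0. Mki67, the proliferation marker, had overlapping signals of 3270, 1866 and 2943 against 3538, 3014 and 4943, a difference of -0.51 ± 0.32. Ttk, a spindle checkpoint kinase, differed by -0.92 ± 0.35. Of 16 D cyclins, CDKs and their inhibitors, 3 were higher and 1 lower and apart, with a median of 0.03. Ccnd2 had signals of 364, 312 and 102 in SP and 0.624, 30.6 and 52.7 in non-SP cells, a difference of 2.47 ± 0.69, while Ccnd3 had 1082, 1149 and 1309 against 1996, 1427 and 2347, a difference of -0.66 ± 0.26. Cdkn1a, the CDK inhibitor p21, differed by 0.76 ± 0.37.

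**Figure D3:**
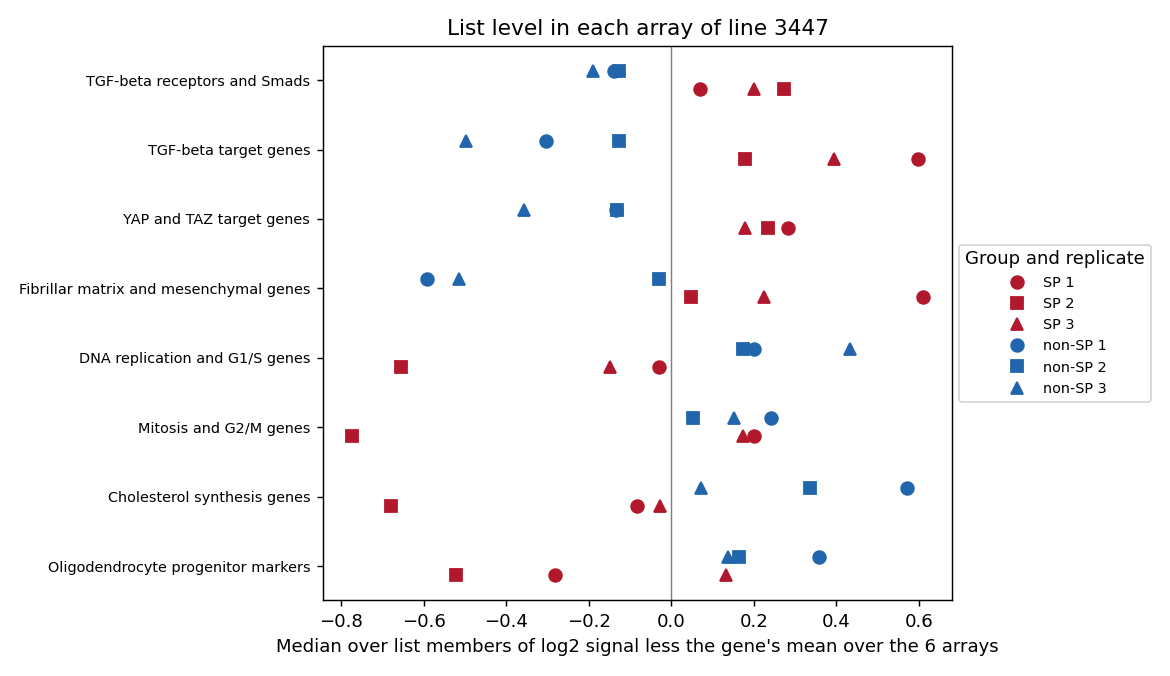
Level of 8 gene lists in each of the 6 arrays of line 3447, as the median over members of the log2 signal less each gene's mean over the 6 arrays; red marks SP, blue non-SP, and the symbol the replicate. The SP and non-SP arrays are apart for all lists shown but the mitosis list, where only SP replicate 2 is low (-0.77); for oligodendrocyte progenitor markers SP replicate 3 (0.13) lies just below the lowest non-SP array (0.14).

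Cholesterol synthesis genes also had lower levels in SP cells. All 21 tested had a difference below 0, 11 were lower and apart, 7 had an unadjusted p under 0.05 and 0 passed the adjusted test; the median was -0.68, against -0.22 in neurospheres, where 20 of 21 were below 0. Mvk, mevalonate kinase, an early enzyme of the pathway, had signals of 123, 75.3 and 66.2 in SP and 185, 218 and 156 in non-SP cells, a difference of -1.25 ± 0.38. Idi1, which makes the second isoprene unit, had 4605, 2468 and 4239 against 6649, 6838 and 4683, a difference of -0.68 ± 0.31. Fdft1, squalene synthase, had 3428, 2201 and 4106 against 6373, 5618 and 6135, a difference of -0.92 ± 0.27 (limma adjusted p = 0.392). Lss, lanosterol synthase, differed by -1.13 ± 0.48, and Cyp51, the lanosterol demethylase, by -0.65 ± 0.29. By array the list stood at -0.08, -0.68 and -0.03 in SP and 0.57, 0.34 and 0.07 in non-SP cells, again lowest in SP replicate 2. Without that array the median difference was -0.39. Of 16 fatty acid synthesis genes, 15 were below 0 and 6 were lower and apart, with a median of -0.22. Fads1, a desaturase, had 1047, 910 and 1503 against 2455, 2051 and 1780, a difference of -0.88 ± 0.27, and Elovl6, an elongase, differed by -0.87 ± 0.29.

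Cholesterol synthesis promoters combine SREBP sites with CCAAT boxes, which NF-Y binds. The promoter of Mvk is shown for its CCAAT boxes. CCAAT was found, on either strand, in 16 of 17 cholesterol synthesis promoters (94.1%) and in 41.0% of all promoters. It was also found in 78.1% of mitosis and 60% of replication promoters, so a high share was not particular to this list. TGF-beta target, fibrillar matrix and YAP and TAZ promoters had it in 44.4%, 29.4% and 25%. The SREBP motif TCACNCCAC was found in 1 of 17 cholesterol synthesis promoters (5.88%) and in 1.23% of all. The Mvk sequence is chr5:114444019-114444268, plus strand, with its 5 CCAAT matches on either strand in capitals. It holds no match to TCACNCCAC on either strand.
Mvk: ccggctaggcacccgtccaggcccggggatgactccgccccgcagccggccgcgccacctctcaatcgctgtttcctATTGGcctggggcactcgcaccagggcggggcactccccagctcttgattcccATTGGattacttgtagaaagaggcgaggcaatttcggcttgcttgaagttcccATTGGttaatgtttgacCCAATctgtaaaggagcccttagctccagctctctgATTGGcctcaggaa

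Lineage markers of the oligodendrocyte series had lower levels in SP cells. Of 16 progenitor markers, 14 were below 0, 5 were lower and apart, 3 had an unadjusted p under 0.05, and the median was -0.44; in neurospheres it was -0.51. Pdgfra, the growth factor receptor of these progenitors, had signals of 4605, 3083 and 4900 in SP and 7184, 6708 and 6261 in non-SP cells, a difference of -0.66 ± 0.52. Olig1 had 1617, 1062 and 2392 against 3446, 2704 and 2487, a difference of -0.82 ± 0.32, and its relative Olig2, both lineage factors, differed by -0.55 ± 0.32 with overlapping groups. Gpr17, a receptor of cells about to mature, had 76.1, 89.5 and 251 against 351, 185 and 319, a difference of -1.15 ± 0.42, and Ptprz1, a receptor phosphatase, differed by -0.40 ± 0.18. Of 8 myelin genes tested, 7 were below 0 and 4 lower and apart, with a median of -0.37; Myrf, the factor that drives myelin genes, differed by -1.14 ± 0.46.

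Astrocyte markers leaned higher in SP cells, while the median of stem cell markers was closer to that of all genes. Of 21 astrocyte markers, 15 were above 0 and 2 higher and apart, near the share over all genes, with a median of 0.31. In neurospheres the astrocyte list had a median of 0.47, with 19 of 21 above 0. Slc1a3, a glutamate transporter, had overlapping signals of 4550, 2800 and 3800 against 1689, 3108 and 1782, a difference of 0.82 ± 0.25, and Sox9, a glial factor, differed by 0.81 ± 0.27. Of 16 neural stem and progenitor markers, 6 were above 0 and 3 lower and apart, with a median of -0.13. Nes, the intermediate filament nestin, differed by -0.40 ± 0.24, Sox2 by 0.16 ± 0.11 and Prom1, which encodes CD133, by -0.94 ± 0.71. Sox2 signals were 6006, 7326 and 5815 against 5840, 5939 and 6062, while those of Prom1 were low throughout, 12.2, 14.5 and 34.8 against 66.1, 35.8 and 24.8.

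Among stress genes, those under NRF2, the regulator of the oxidative response, had a median of 0.04 over 24 members, with 4 higher and 2 lower and apart. Nqo1, a quinone reductase, had signals of 1362, 792 and 913 in SP and 357, 553 and 308 in non-SP cells, a difference of 1.29 ± 0.32. Mgst1, a microsomal glutathione transferase, differed by 0.95 ± 0.30, and Nfe2l2, which encodes NRF2, by 0.64 ± 0.26. Of 26 ATF4 amino acid stress genes, 4 were higher and 1 lower and apart, with a median of 0.14. Nupr1, a stress-induced nuclear protein in this list, had 838, 1757 and 1291 against 572, 381 and 279, a difference of 1.61 ± 0.62. Beyond 19 lists whose medians were recomputed under every alternative, 26 were examined, among them the TGF-beta ligand, cartilage, integrin, cyclin and ATF4 lists above. The 22 of them with at least 5 members tested had medians between -0.18 (Myc network and ribosome genes) and 0.45 (ErbB receptors and ligands). Of 377 memberships in those 22 lists, 49 were higher and apart and 23 lower and apart. The smaller lists were sex-linked genes, with a median of 0.84 and 2 of 4 higher and apart, microglia and macrophage markers (0.51, 0 of 3 apart), endothelial markers (-0.09, 0 of 4 apart) and blood markers, of which 0 were tested.

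The other highest separated genes were of mixed function. Anxa1, a calcium-dependent phospholipid-binding protein, had signals of 1930, 1788 and 491 in SP and 95.4, 263 and 258 in non-SP cells, a difference of 2.52 ± 0.88. Ptger4, a prostaglandin E2 receptor, had 394, 251 and 259 against 46.0, 71.6 and 23.8, a difference of 2.15 ± 0.46. Stk32b, a kinase, had 881, 443 and 246 against 35.8, 111 and 69.6, a difference of 2.34 ± 0.47 (limma adjusted p = 0.116). Il13ra1, a chain of the IL-13 receptor, differed by 2.28 ± 0.55, Svopl by 2.34 ± 0.67 and Tmem212 by 2.32 ± 0.62.

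Among the lowest, Smarcb1, a core subunit of the SWI/SNF chromatin remodeller, had signals of 403, 925 and 604 in SP and 2540, 1677 and 2090 in non-SP cells. The groups were well apart, and the difference was -1.76 ± 0.33 (limma adjusted p = 0.116). A second Smarcb1 probe set that passed the filter differed by -0.21, so the probe sets disagree in size; the one used is of a type that can bind related transcripts. Gria2 and Neto1, an AMPA receptor subunit and a partner of glutamate receptors, had differences of -1.50 ± 0.50 and -1.56 ± 0.49. Gria2 signals were 882, 402 and 756 against 2155, 1261 and 2294. Spock2, a brain proteoglycan, differed by -1.58 ± 0.43 and Parvb, an adaptor of integrin-linked kinase, by -1.63 ± 0.46.

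Whether these differences are those of line 3447 or of dye exclusion in general was asked by setting them against SP and non-SP neurospheres. No gene passed limma's adjusted test of the difference between the effects (0% of 11908), and 266 (2.23%) had an unadjusted p under 0.05. Smad7 was higher in SP neurospheres too, with a log2 difference of 1.31 and separated groups. Ptger4 at 1.75, Ccn4 at 1.53, Ccn1 at 1.68 and Fosl2 at 1.23 were also well above 0 there, as were Gria2 at -1.63 and Neto1 at -1.86 below it. Papss2, Cytl1 and Svopl, at 0.11, 0.09 and -0.04, were near 0 in neurospheres. The smallest unadjusted p of this test was that of Stk32b, at -0.65 in neurospheres (limma unadjusted p = 0.00035, adjusted p = 0.999), followed by Smarcb1, at 0.21 there (limma unadjusted p = 0.000594, adjusted p = 0.999). The 15 highest and 15 lowest genes were picked by their values in line 3447, which favours a larger difference there, so these pairs are a description.

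The lists also stood side by side. Over all 11908 genes, the difference between the effects was below 0 in 6587 and above 0 in 5321. The neurosphere difference itself was above 0 in 6784 and below 0 in 5124. In mitosis genes the neurosphere median was 0.33 and the tumour median -0.28, and the difference between the effects was below 0 in 38 of 39 members, with 2 at an unadjusted p under 0.05. In replication genes it was below 0 in 40 of 43 members, also with 2. Without SP replicate 2 of line 3447 the tumour median of mitosis genes was 0.0075, and the difference was below 0 in 33 of 39 mitosis genes (0 at an unadjusted p under 0.05) and in 33 of 43 replication genes (2). In fibrillar matrix genes it was above 0 in 17 of 24 members, with 1. Oligodendrocyte progenitor markers were below 0 in all 16 members in neurospheres and in 14 of 16 in line 3447.

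**Figure D4:**
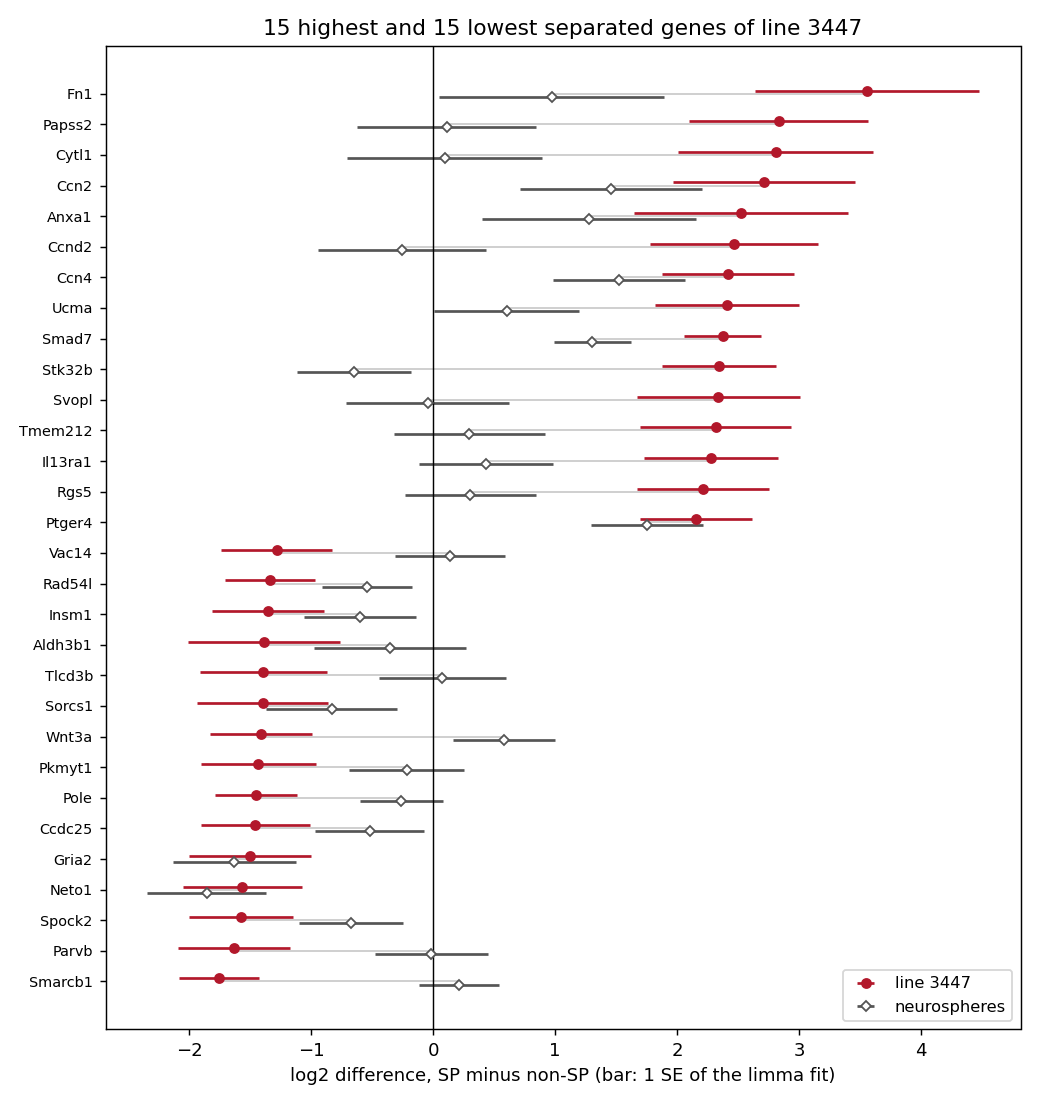
Log2 difference, SP minus non-SP, with bars of 1 SE of the limma fit, for the 15 highest and 15 lowest separated genes of line 3447 (red) and the same genes in neurospheres (open diamonds). Ptger4, Gria2 and Neto1 lie close together in both (2.15 and 1.75; -1.50 and -1.63; -1.56 and -1.86), while Papss2 and Stk32b are far apart (2.83 and 0.11; 2.34 and -0.65).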

How the data were processed

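RNA of sorted cells was labelled with biotin using a NuGEN Ovation Pico kit and hybridised to Affymetrix mouse arrays, per the labels' protocols. The deposited intensities are MAS5 signals that the authors made in Affymetrix Expression Console, per the submitters' processing notes; their mean without the extreme 2% at each end was 500 on each array, so arrays had been scaled.

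Of 45101 probe sets, 34945 carried 1 gene symbol in the platform annotation, 932 several and 9160 none, and 64 were controls. Signals were quantile-normalized over the 15 arrays, log2 was taken after adding 16, and probe sets above their array's median in at least 3 arrays were kept. The probe set with the highest mean stood for a gene, giving 11908 genes of 18193. Quoted signals are as deposited; log2 differences understate changes of dim genes. The number of arrays limits the precision. One limma model (limma 3.58.1, R 4.3.3; 5 group means, 10 residual degrees of freedom, trend of spread, two-sided, Benjamini-Hochberg at 0.05) gave the tests; the code was tested on simulated data. A group is called apart when its 3 arrays lie on one side of the other 3.

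The arrays and the 45 gene lists were chosen with earlier results of these data known, so lists carry no test. Named genes are those past the threshold, the 15 highest and 15 lowest that are apart with an unadjusted p under 0.05, up to 5 of each list by p, the 5 smallest p against neurospheres, and Abcg2, Abcb1b, Abcc1, Egfr, Pdgfra, Nes, Prom1, Sox2, Olig2 and Mki67; clone names were left out. Sdc4, Pdgfrb, Prim1, Fos, Jun and Egr1 were chosen after their values were seen. Alternatives covered normalization, the added constant, filter, arrays in the fit, weights, trend, probe sets, replicate block and each array left out.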

Additional observations from a re-analysis of the deposited data

Results flagged for a closer look

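Wnt3a, a canonical Wnt ligand, had opposite differences between the sorted fractions of the tumour line and of the neurospheres. In line 3447 all SP arrays lay below all non-SP arrays, at a log2 difference of -1.41 ± 0.42, and in neurospheres all SP arrays lay above, at 0.58. The limma test of the difference between these effects gave an unadjusted p of 0.00397 and an adjusted p of 0.999. Signals were low in every array of line 3447, at 3.95 to 60.7.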

How the results depend on the processing

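Of 29 alternatives, 15 left out 1 array. Smad7 kept its direction in all of them, with log2 differences of 1.80 to 2.59, and passed in 21, with adjusted p of 0.00397 to 0.147 over the 29. It lost the call under median centring (adjusted p = 0.0648), with all annotated genes tested (0.0520), with the mean of a gene's probe sets (0.139) and in 5 of the leave-outs. Genes past the threshold, higher in SP, numbered 0 with median centring, 0 without a filter, 0 with the mean of probe sets, 17 with the 6 arrays of line 3447 alone, 5 with line 3447 and neurospheres and 48 with array weights. Unadjusted p under 0.05 (limma) was met by 177 higher and 1002 lower genes with median centring, 731 and 479 without a filter and 471 and 419 with the mean of probe sets. Lower genes numbered 1 with line 3447 alone and 2 with array weights. Leaving out 1 array gave 0 to 4 higher and 0 to 1 lower: 3 without non-SP replicate 1, 4 and 2 without 4346 SP replicates 1 and 3, 2 without neurosphere non-SP replicate 1, 2 higher and 1 lower without neurosphere non-SP replicate 2, and 0 without SP replicate 2 or 3 or non-SP replicate 2 or 3. Tests against the neurosphere effect gave 1 call with line 3447 and neurospheres alone and 0 to 1 on leaving out 1 array (1 without 4346 SP replicate 1). Same-numbered SP and non-SP arrays had deviations that correlated at -0.22, -0.25 and -0.12, so the numbers were not taken as pairs. With the replicate block, 9 genes were higher and 1 lower in the 6 arrays alone, and 5 were higher and 0 lower with the replicate block within origin in 15 arrays.

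Genes higher and apart numbered 241 under median centring and 1080 to 1859 on leaving out 1 array, and genes lower and apart 1005 to 1918; with fewer arrays to separate, more genes are apart. List medians, less that of all genes, moved by up to 1 SD over the arrays of a group for 11 of 19 lists, an SD that itself holds the outlying arrays. Over all settings these ran from -0.32 to -0.054 for ABC transporters, 0.52 to 0.76 for TGF-beta targets, 0.015 to 0.26 for MAPK feedback, 0.18 to 0.51 for Notch, 0.0032 to 0.23 for Wnt, -0.67 to -0.38 for replication, -0.50 to 0.038 for mitosis, -0.85 to -0.36 for cholesterol synthesis, -0.29 to -0.19 for fatty acid synthesis, 0.028 to 0.094 for NRF2 and -0.59 to -0.31 for oligodendrocyte progenitor lists. The values nearest 0 for the replication, mitosis and cholesterol lists came without SP replicate 2. The others were, for TGF-beta receptors and Smads, 0.23 with the mean of probe sets and 0.25 to 0.46 on leaving out 1 array; for YAP and TAZ genes, 0.22 with 64 added, 0.54 with the upper-quartile filter and 0.27 to 0.49 on leaving out 1 array; for immediate early genes, 0.011 to 0.23 on leaving out 1 array, lowest without non-SP replicate 2; for fibrillar matrix genes, 0.74 with 64 added, 0.65 with the mean of probe sets and 0.69 to 1.19 on leaving out 1 array, lowest without non-SP replicate 1; for neural stem markers, -0.31 with the mean of probe sets; for myelin genes, -0.47 with median centring and with no normalization, -0.30 without a filter and with the mean of probe sets, and -0.49 to -0.32 on leaving out 1 array; for astrocyte markers, 0.53 with median centring and with no normalization, 0.48 with 4 added, 0.21 with 64 added and 0.18 to 0.53 on leaving out 1 array; and for pericyte markers, 0.29 without a filter. The cause was not tested.

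Of 92 named genes, 89 kept their sign. Egr1 was at -0.48 with median centring, -0.15 with no normalization, -0.023 with array weights and -0.047 to 0.069 on leaving out 1 array. Abcb1b was at 0.24 with no normalization, 0.0044 with 64 added, 0.015 with array weights and -0.24 to 0.28 on leaving out 1 array, and Sox2 was at -0.23 with median centring. Dim genes such as Ccn2, Wnt3a and Egfr are limited by signal over background.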
